A study of Homo sapiens with 6 samples.

Results

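Synaptic and axonal adhesion molecules are cell surface proteins through which neurons and glia hold on to each other, and 49 genes that encode them were followed in U251 glioblastoma cells. The genes were chosen by symbol, as the numbered or listed members of 12 families (contactins, contactin-associated proteins, neurexins, neuroligins, SLITRK, LRRTM, LRFN, NCAM, CADM, FLRT, L1 and IgLON proteins), out of 28395 genes in the count table, of which 27745 could be given a symbol. U251 (labelled U251MG) is an established human line from a glioblastoma astrocytoma. Bulk mRNA sequencing compared 3 libraries of wild-type cells (WT) with 3 libraries of cells in which the kinase gene NUAK2 had been targeted by CRISPR-Cas9 (NUAK2-CR). Neither group carried a drug or other treatment by its labels. The targeted cells had been transduced with lentiviral Cas9 and guide vectors carrying GFP and mCherry and sorted for both colours, and the study derived several clones, but the labels do not name the clone or clones sequenced. Transduction, sorting and cloning therefore cannot be told apart from the loss of NUAK2, and with no separate cultures named, p-values measure only the spread between these libraries.

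The 6 libraries held 29648445 to 55574081 gene counts, with the deepest library in WT and the shallowest in NUAK2-CR. The first principal component carried 79.6% of the variance and set the groups apart. NUAK2 itself had 1926, 1457 and 1580 normalized counts in WT (counts scaled to a common library size) and 798.7, 961.2 and 848.7 in NUAK2-CR. The groups did not overlap, and NUAK2 mRNA was lower by a log2 fold change of -0.93 (SE 0.11, adjusted p = 1.8e-05), from 1654 ± 243.1 to 869.5 ± 83.2 (SD, n = 3). Here and throughout, adjusted p is the Benjamini-Hochberg value of edgeR's quasi-likelihood test over the 14873 genes with enough counts to be tested, and a log2 fold change is NUAK2-CR against WT. A gene was called at an adjusted p under 0.05 and counted as a differentially expressed gene (DEG) where the absolute log2 fold change was also over 2. Low counts were mostly even (65.2% to 69.3% of values from 1 to 10 in each library, against 49.5% to 50.6% of values over 100), the pattern that counting both mates of a read pair gives. A count of 3 may thus stand for fewer fragments.

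These families build contacts in layers. Along the axon, contactins and contactin-associated proteins, the L1 family (with neurofascin at the axon initial segment and the node of Ranvier) and the lipid-anchored IgLON proteins hold axons to glia and to one another. NCAM and CADM proteins bind across the cleft to their own kind or to relatives, and at the synapse presynaptic neurexins meet postsynaptic neuroligins and LRRTM proteins, while SLITRK and some LRFN proteins bind presynaptic receptor phosphatases of the LAR type. Glioma cells express many of these molecules, some of which take part in cell migration and in contacts between neurons and tumour cells.

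Of the 49 genes, 31 passed the filter on low counts and 26 of those were called, 12 higher and 14 lower in NUAK2-CR. This was 83.9% of the tested members, against 54.5% of all tested genes, and by direction 38.7% were higher against 26.3%, and 45.2% were lower against 28.2%. Under the stricter DEG thresholds 10 members were counted, or 32.3% against 4.72% of all genes. CADM3, NCAM2 and SLITRK6 were the 3 higher DEGs (9.68% against 1.89%), and CNTN1, NFASC, SLITRK2, SLITRK4, LSAMP, NRXN2 and LRRTM2 the 7 lower ones (22.6% against 2.83%). Of the lower ones, SLITRK4, NRXN2 and LRRTM2 had every NUAK2-CR library under 10 counts and passed the filter through WT. The members were chosen with earlier results of these data known, so the shares in this paragraph describe them and are not a test. The WT and NUAK2-CR libraries did not overlap for 28 of the 31 members (90.3%), against 61.3% of all genes. The tested members had a median log2 fold change of -0.45, against -0.01 over all tested genes, and the median absolute change was 1.16 against 0.37. The summed counts of all 49 genes, not divided by transcript length, nevertheless stayed within a narrow range. They were 998, 1180 and 1140 CPM (counts scaled to a fixed library total) in WT and 1200, 1170 and 1200 in NUAK2-CR. Lower members were thus set against higher ones in this total, and 6 of the 12 families (neuroligins, SLITRK, NCAM, CADM, L1 and IgLON proteins) held both called higher and called lower genes. The narrow range is of undivided counts only. Divided by transcript length, the mean sums of contactin, neurexin, SLITRK and LRRTM genes were lower in NUAK2-CR and those of the other families higher. The largest, of the CADM genes, went from 59.2 ± 9.3 to 96.5 ± 2.5. The neuroligin sum, 20.1 ± 0.87 in WT and 22.6 ± 1.1 in NUAK2-CR, leaves out NLGN4X, a neuroligin not among the 49 genes. Divided by length, NLGN4X went from 17.0 to 13.3. In bulk RNA, a change in the share of cells that express a gene and a change in RNA per cell cannot be told apart.

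**Figure D1:**
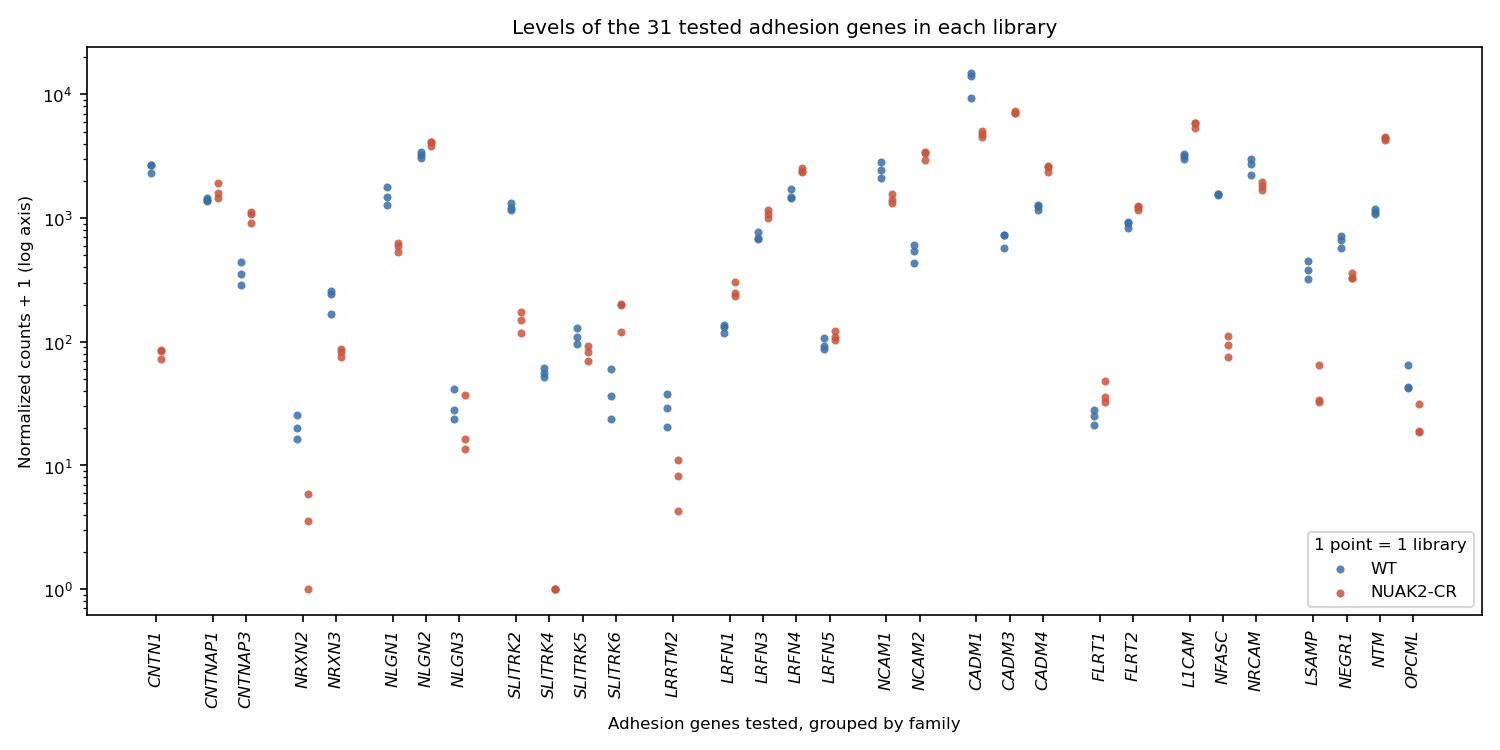
Normalized counts plus 1 (log axis) of the 31 tested adhesion genes, grouped by family, with 1 point for each of 3 WT (blue) and 3 NUAK2-CR (red) libraries. CNTN1, NFASC, SLITRK2 and LSAMP lay far lower in NUAK2-CR, CADM3, NCAM2 and NTM lay far higher, and SLITRK4 was at 0 in every NUAK2-CR library.

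The promoters of 5 of the DEGs with mean normalized counts of at least 100 in 1 group are shown, since these are among the members that changed most, with the 2 higher genes placed before the 3 lower ones. Each is the RefSeq window from 250 bases before to 50 after a listed start (GRCh38.p14), printed 5′ to 3′ on the gene's strand. The windows of CADM3 (chr1:159171365-159171664, plus strand), SLITRK6 (chr13:85799370-85799669, minus), NFASC (chr1:204828402-204828701, plus), SLITRK2 (chrX:145817579-145817878, plus) and LSAMP (chr3:116445438-116445737, minus) surround the outermost start of each gene. Those of CNTN1 and NCAM2 lie at a start inside the gene and are not printed. Capitals mark matches, on either strand, to the TEAD motif GGAATG, the AP-1 motif TGANTCA or the TATA box TATAAA.
CADM3: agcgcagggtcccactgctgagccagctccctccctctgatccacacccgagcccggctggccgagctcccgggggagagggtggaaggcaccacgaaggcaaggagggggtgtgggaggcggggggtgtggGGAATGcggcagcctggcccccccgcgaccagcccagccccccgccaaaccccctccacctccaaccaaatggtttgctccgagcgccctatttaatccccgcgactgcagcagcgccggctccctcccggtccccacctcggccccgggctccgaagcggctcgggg
SLITRK6: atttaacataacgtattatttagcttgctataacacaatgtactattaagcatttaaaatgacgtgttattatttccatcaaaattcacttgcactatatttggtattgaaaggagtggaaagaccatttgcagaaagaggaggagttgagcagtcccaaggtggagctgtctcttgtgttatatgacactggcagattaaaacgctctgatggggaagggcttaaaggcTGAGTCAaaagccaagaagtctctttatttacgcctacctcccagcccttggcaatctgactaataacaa
NFASC: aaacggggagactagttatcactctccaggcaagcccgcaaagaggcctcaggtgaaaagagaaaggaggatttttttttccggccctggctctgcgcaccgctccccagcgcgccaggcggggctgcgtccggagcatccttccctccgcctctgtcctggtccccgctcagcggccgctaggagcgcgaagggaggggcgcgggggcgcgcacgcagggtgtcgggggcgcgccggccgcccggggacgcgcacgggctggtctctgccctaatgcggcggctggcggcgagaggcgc
SLITRK2: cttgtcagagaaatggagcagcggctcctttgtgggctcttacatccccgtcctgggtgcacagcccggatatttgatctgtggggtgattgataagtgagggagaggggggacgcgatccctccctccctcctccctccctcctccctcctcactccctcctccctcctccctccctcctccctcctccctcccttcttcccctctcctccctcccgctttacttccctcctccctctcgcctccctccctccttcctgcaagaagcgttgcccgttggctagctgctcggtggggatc
LSAMP: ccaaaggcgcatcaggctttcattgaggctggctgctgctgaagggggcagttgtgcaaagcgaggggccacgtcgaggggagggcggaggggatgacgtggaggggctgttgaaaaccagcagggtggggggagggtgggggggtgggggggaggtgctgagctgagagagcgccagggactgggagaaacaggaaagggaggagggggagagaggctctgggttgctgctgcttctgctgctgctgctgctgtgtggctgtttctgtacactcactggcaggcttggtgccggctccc

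CADM3 held 1 TEAD match and SLITRK6 1 AP-1 match, and the windows of NFASC, SLITRK2 and LSAMP held none of the 3 motifs. Promoter windows were found for 41 of the 49 genes, 68 windows in all. Among these, 19.1% held a TEAD match, 5.88% an AP-1 match and 4.41% a TATA box, beside 14.0%, 7.71% and 11.5% of all 35116 windows of the same length. A window held a median of 19 CpG dinucleotides for the 12 higher members listed and 9.5 for the 10 lower ones, beside 14 over all windows. Several genes gave more than 1 window, so these medians are over windows and describe them only. Among the printed windows CADM3 held 23 CpG, SLITRK6 4, NFASC 35, SLITRK2 10 and LSAMP 8, so neither direction had only rich or only poor windows.

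Axonal adhesion was led by CNTN1 (chr12:40692439-41072415), which encodes contactin-1, a GPI-anchored protein of the axon surface that binds neurofascin and the receptor phosphatase PTPRZ1. It had 2674, 2311 and 2662 normalized counts in WT against 85.08, 83.22 and 71.36 in NUAK2-CR. The groups were far apart and each was tight, with means of 2549 ± 205.9 and 79.89 ± 7.44 (SD, n = 3). CNTN1 fell by 5.0 on the log2 scale (SE 0.11, adjusted p = 1.54e-11) and stood at 3.13% of its WT level. It was the only contactin with enough counts to be tested. CNTN3 had no count in any library, and CNTN4, CNTN5 and CNTN6 had at most 11 counts in any library. CNTN2 was listed with 0, 6 and 15 counts in WT against none in NUAK2-CR. Levels set per kilobase of the canonical GENCODE transcript (normalized counts as CPM, divided by length) put the whole contactin family at 12.1 ± 0.96 in WT and 0.431 ± 0.062 in NUAK2-CR.

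The contactin-associated proteins, neurexin-like membrane proteins that pair with contactins at the paranode, gave no called lower gene. CNTNAP1, the paranodal partner of contactin-1 and the most abundant gene of its family per kilobase, had 1365, 1460 and 1409 normalized counts in WT against 1909, 1608 and 1443 in NUAK2-CR. The groups overlapped, and the log2 fold change of 0.23 (SE 0.10, adjusted p = 0.0661) was not called. CNTNAP3 rose from 284.3, 439.9 and 350.4 to 1081, 910.6 and 1120 normalized counts, a log2 fold change of 1.54 (SE 0.15, adjusted p = 2.32e-06). CNTNAP3 lies among near-identical copies on chromosome 9, and some reads may not be assignable to 1 copy. Of those copies, 2, CNTNAP3B and CNTNAP3C, had log2 fold changes of 0.80 (adjusted p = 0.00679) and 1.53 (adjusted p = 2.34e-04). CNTNAP2 had the highest count of all untested members, at 34 in a WT library, and CNTNAP4 had none.

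In the L1 family, NFASC (chr1:204828652-205022822) encodes neurofascin, which gathers at the axon initial segment and at nodes. Its normalized counts were 1545, 1561 and 1575 in WT and 93.97, 74.78 and 110.9 in NUAK2-CR. The WT libraries lay within a few counts of 1560 ± 14.9 and every NUAK2-CR library was near the mean of 93.2 ± 18.1 (SD, n = 3). NFASC fell by 4.06 on the log2 scale (SE 0.12, adjusted p = 2.07e-10), beside a median of -0.42 over its 100 nearest tested genes. Its relatives had smaller fold changes. L1CAM, a homophilic adhesion molecule of growing axons that many tumours express, had 2996, 3204 and 3317 normalized counts in WT against 5844, 5879 and 5331 in NUAK2-CR. It rose with no overlap by a log2 fold change of 0.84 (SE 0.07, adjusted p = 8.99e-07), while the median of its 100 nearest tested genes was -0.50. NRCAM, which binds neurofascin and contactins, had 2215, 2992 and 2742 normalized counts in WT against 1961, 1673 and 1813 in NUAK2-CR, and fell (log2 fold change -0.54, SE 0.10, adjusted p = 7.93e-04). CHL1, the fourth gene of the family, had 2 counts in 1 WT library and none elsewhere. Per kilobase, L1CAM took 53.1% of the family's level in WT and 79.8% in NUAK2-CR, and NFASC went from 13.0% to 0.654%.

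IgLON proteins are small GPI-anchored molecules that bind one another and shape neurite outgrowth. All 4 listed here (LSAMP, NEGR1, NTM and OPCML) were tested and called, with 3 lower and 1 higher. LSAMP, the limbic system-associated membrane protein (chr3:115802374-116445487), had 320.8, 450.5 and 379.4 normalized counts in WT against 63.49, 32.56 and 31.84 in NUAK2-CR. The groups did not overlap, and LSAMP fell by 3.18 on the log2 scale (SE 0.25, adjusted p = 4.98e-07). NEGR1 fell from 571.9, 720.6 and 667.5 normalized counts in WT to 361.9, 326.8 and 329.4, or by 0.94 on the log2 scale (SE 0.12, adjusted p = 2.47e-05). OPCML, low throughout, went from 49.37 ± 13.1 to 22.04 ± 7.31 normalized counts (adjusted p = 0.0161), and its libraries did not overlap either. The OPCML call was lost without NUAK2-CR replicate 2, NUAK2-CR replicate 3 or WT replicate 3. NTM, neurotrimin, went the other way. It had 1121, 1083 and 1173 normalized counts in WT against 4261, 4514 and 4405 in NUAK2-CR. The groups were far apart, and the log2 fold change of 1.96 (SE 0.07, adjusted p = 6.1e-10) was just short of the DEG threshold. Since NTM was already 79.3% of the family's level per kilobase in WT, its rise to 97.7% left the other IgLONs at a small remainder, and the family's sum went from 12.9 ± 0.43 to 40.8 ± 1.0.

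**Figure D2:**
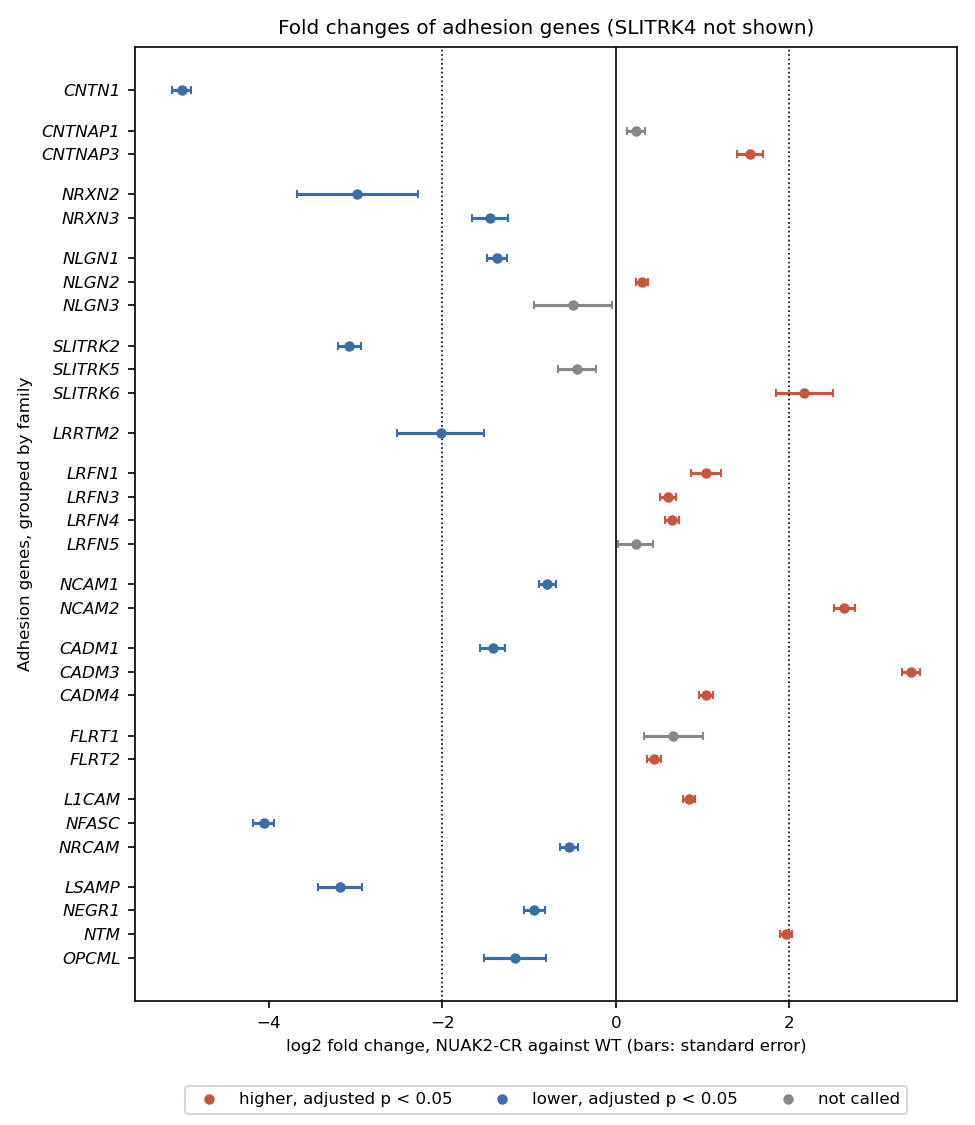
log2 fold changes of the tested adhesion genes, NUAK2-CR against WT, with standard errors as bars and dotted lines at -2 and 2. CNTN1 at -5.0 and NFASC at -4.06 were lowest and CADM3 at 3.40 highest, LRFN genes lay at or above 0, and SLITRK4 is not drawn because its NUAK2-CR counts were all 0.

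NCAM and CADM proteins carry adhesion between like cells, and here the leading gene of each family changed. NCAM1, the neural cell adhesion molecule CD56, had 2122, 2832 and 2460 normalized counts in WT against 1552, 1388 and 1334 in NUAK2-CR. It fell by 0.79 on the log2 scale (SE 0.10, adjusted p = 3.62e-05), with no overlap. NCAM2 (chr21:20998409-21543329), its relative best known from olfactory axons, had 432.4, 606.8 and 539.6 normalized counts in WT against 3368, 2969 and 3416 in NUAK2-CR. Every NUAK2-CR library was several times above every WT library, and NCAM2 rose by a log2 fold change of 2.63 (SE 0.12, adjusted p = 2.99e-09). The ratio of NCAM2 to NCAM1 raw counts, which does not depend on library scaling, was 0.204, 0.214 and 0.219 in WT and 2.17, 2.14 and 2.56 in NUAK2-CR. Per kilobase, NCAM1 went from 86.7% ± 0.43 to 37.7% ± 2.3 of the family's level (SD, n = 3), and the family's sum went from 13.1 ± 1.9 to 17.3 ± 1.1.

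CADM proteins, also called SynCAM or nectin-like proteins, bind each other across the synaptic cleft and between axons and glia. CADM1 was the most abundant member of the whole set per kilobase in WT. It had 9438, 14950 and 14040 normalized counts in WT against 4741, 4541 and 5039 in NUAK2-CR. Even the lowest WT library, the deepest one sequenced, was above every NUAK2-CR library, and CADM1 fell by 1.42 on the log2 scale (SE 0.14, adjusted p = 2.7e-06). CADM3 (chr1:159171615-159203313) had 575.9, 733.1 and 733.1 normalized counts in WT against 7096, 7055 and 7306 in NUAK2-CR. It rose 10.5-fold (log2 fold change 3.40, SE 0.10, adjusted p = 1.04e-10), from 680.7 ± 90.8 to 7152 ± 134.8, while the 100 nearest tested genes had a median of -0.48. CADM4, found on glia along axons, also rose, from 1256, 1153 and 1282 to 2369, 2659 and 2575 normalized counts (log2 fold change 1.04, SE 0.08, adjusted p = 2.69e-07), and CADM2 had 2 counts in 1 library. CADM3 thus went from 8.22% ± 0.24 to 52.8% ± 0.89 of the family's level per kilobase and CADM1 from 65.9% ± 5.4 to 15.2% ± 0.66. An antisense gene, CADM3-AS1, shares exon bases with CADM3, and its counts, 3, 6 and 0 in the WT libraries and 25, 23 and 18 in the targeted ones, were far below those of CADM3. The ratio of CADM3 to CADM1 raw counts was 0.061, 0.049 and 0.0522 in WT and 1.5, 1.55 and 1.45 in NUAK2-CR.

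**Figure D3:**
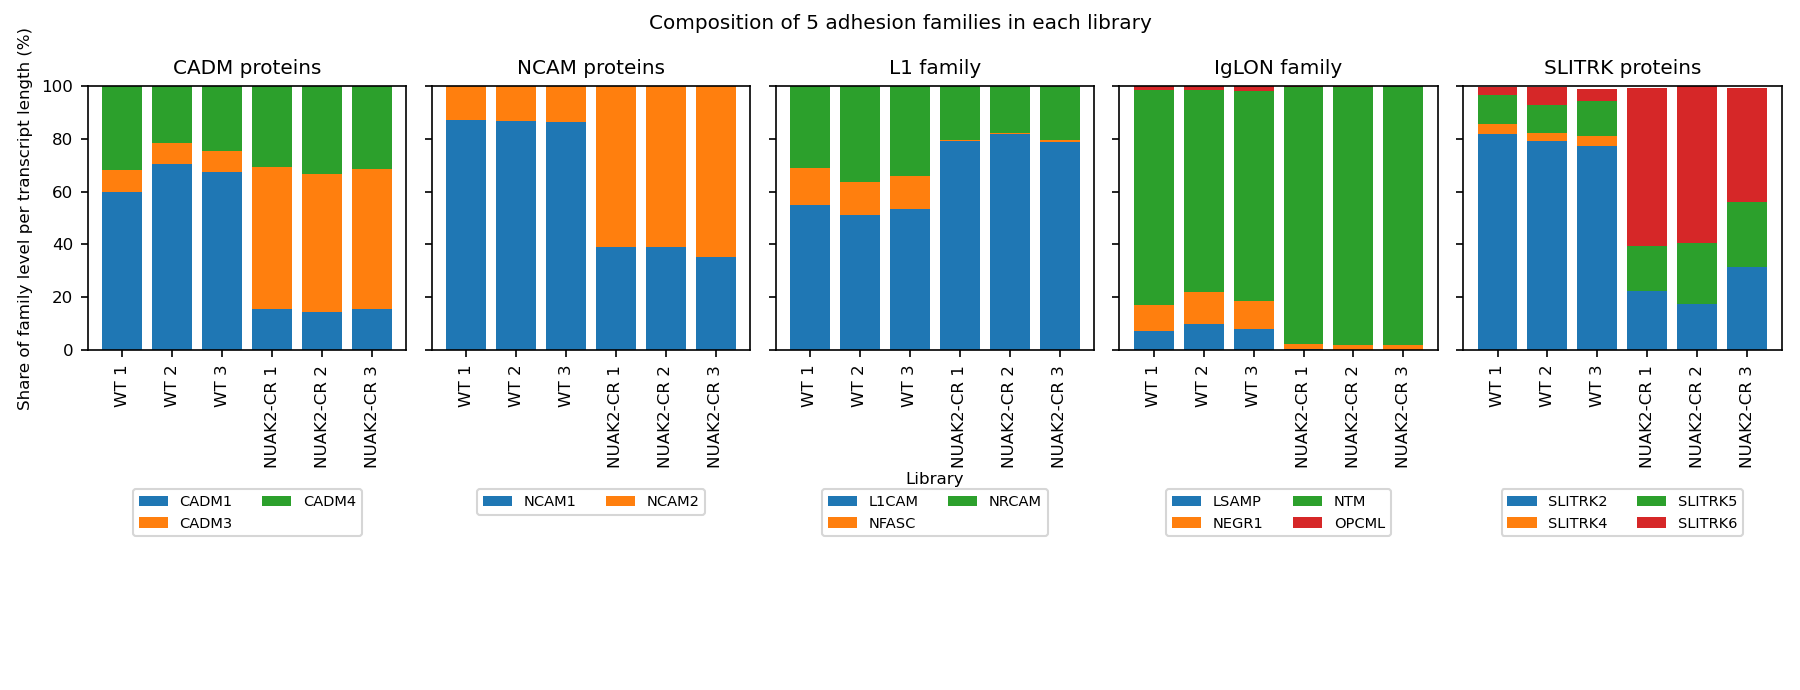
Share of each family's summed level per kilobase of transcript (%) in each library, stacked by gene, for the CADM, NCAM, L1, IgLON and SLITRK families. CADM3 went from 8.22% to 52.8% of the CADM level and NCAM2 from 13.3% to 62.3% of the NCAM level, and SLITRK1, always under 1%, is not drawn.

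SLITRK proteins are leucine-rich repeat receptors that, from the postsynaptic side, bind presynaptic receptor phosphatases. SLITRK2 (chrX:145817829-145829856) had 1160, 1331 and 1213 normalized counts in WT against 148.6, 117 and 172.4 in NUAK2-CR. The groups were well apart, and it fell by 3.07 on the log2 scale (SE 0.13, adjusted p = 2.72e-09), beside a median of -0.51 over its 100 nearest tested genes. SLITRK4, the nearest member on the X chromosome, had 50.48, 54.99 and 60.2 normalized counts in WT and none in any NUAK2-CR library. Against a floor of 3 counts in each NUAK2-CR library it was at least 15.5-fold lower (adjusted p = 6.43e-06). SLITRK6, by contrast, rose from 22.58, 58.84 and 35.47 to 200.6, 199 and 119.7 normalized counts, a log2 fold change of 2.17 (SE 0.33, adjusted p = 1.42e-04). Without WT replicate 1 that change was 1.87 and under the DEG threshold. SLITRK5 went from 110.9 ± 16.9 to 80.86 ± 11.6 and was not called (log2 fold change -0.45, adjusted p = 0.104), although its libraries did not overlap. Per kilobase SLITRK2 went from 79.4% ± 2.4 to 23.8% ± 7.0 of a family sum that itself went from 4.92 ± 0.43 to 1.98 ± 0.21, and SLITRK6 from 4.86% ± 1.9 to 54.1% ± 9.5.

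Presynaptic neurexins were scarce. NRXN3 was the more abundant, and fell from 165.4, 244.1 and 256.9 normalized counts in WT to 73.65, 82.01 and 86.73 (log2 fold change -1.45, SE 0.21, adjusted p = 8.62e-05). NRXN2 was counted as a DEG from 19.26, 15.43 and 24.72 normalized counts in WT against 2.54, 4.824 and 0 in NUAK2-CR (log2 fold change -2.98, SE 0.70, adjusted p = 0.003). These low values do not overlap, but they rest on few reads, and the NRXN2 change was -3.92 without NUAK2-CR replicate 2 and -2.37 without NUAK2-CR replicate 3. Of the neuroligins, their postsynaptic partners, NLGN1, typical of excitatory synapses, had 1287, 1777 and 1484 normalized counts in WT against 633.6, 527 and 594 in NUAK2-CR. NLGN1 fell by 1.37 on the log2 scale (SE 0.12, adjusted p = 1.24e-06), with no overlap. NLGN2, known for inhibitory synapses, was the most abundant of the listed neuroligins per kilobase. NLGN2 rose slightly, from 3437, 3228 and 3088 to 4108, 4145 and 3794 normalized counts (log2 fold change 0.30, SE 0.07, adjusted p = 0.00285). NLGN4X, a neuroligin outside the listed members, was close to NLGN2 per kilobase in WT (15.2, 18.7 and 17.0 against 18.4, 17.3 and 16.5). In NUAK2-CR, NLGN4X was below NLGN2 (13.5, 13.0 and 13.5 against 22.0, 22.2 and 20.3). NLGN4X was called lower (log2 fold change -0.35, SE 0.08, adjusted p = 0.00259). NLGN3 stayed low, and its groups overlapped (log2 fold change -0.49, SE 0.45, adjusted p = 0.38). The NLGN2 to NLGN1 ratio of raw counts was 2.67, 1.82 and 2.08 in WT and 6.48, 7.86 and 6.39 in NUAK2-CR.

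Among the leucine-rich repeat families, LRFN genes, which encode the SALM proteins, some of which bind PSD-95 scaffolds, gave no lower gene. LRFN1, LRFN3 and LRFN4 rose, LRFN5 had a log2 fold change of 0.23 that was not called (adjusted p = 0.363), and LRFN2 had no count. LRFN4, the most abundant per kilobase, had 1719, 1468 and 1464 normalized counts in WT against 2381, 2360 and 2547 in NUAK2-CR (log2 fold change 0.65, SE 0.08, adjusted p = 2.68e-05). LRFN1 had 129.5, 136 and 116.1 in WT and 232.4, 303.9 and 247 in NUAK2-CR (log2 fold change 1.04, SE 0.17, adjusted p = 2.04e-04). For LRFN3 the values were 765.8, 684.9 and 681.5 in WT and 1171, 996.2 and 1075 in NUAK2-CR (log2 fold change 0.60, SE 0.09, adjusted p = 1.42e-04). The groups did not overlap for any of these 3 genes. An exon of LRFN4 shares 621 bases with PC on the other strand, whose log2 fold change was 0.08. LRRTM2, a neurexin ligand and the only LRRTM gene tested, had 27.9, 19.29 and 36.55 normalized counts in WT against 10.16, 7.236 and 3.294 in NUAK2-CR (log2 fold change -2.02, SE 0.50, adjusted p = 0.00444). Its exons share 445 bases with CTNNA1 on the other strand, which was abundant in both groups and had a log2 fold change of -0.18, and the DEG count of LRRTM2 was lost without WT replicate 3 (-1.80) or NUAK2-CR replicate 3 (-1.67). LRRTM1 and LRRTM4 had no count. FLRT2, a leucine-rich repeat ligand of latrophilins and netrin receptors, rose from 828.9, 936.7 and 920.1 normalized counts in WT to 1236, 1246 and 1156 (log2 fold change 0.44, SE 0.08, adjusted p = 7.45e-04). FLRT1 was low and not called (log2 fold change 0.66, adjusted p = 0.117), and FLRT3 had 6 counts in each WT library and none in NUAK2-CR, too few to pass the main filter.

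Of the 18 untested members, 6 had no count in any library (CNTN3, CNTNAP4, SLITRK3, LRRTM1, LRRTM4 and LRFN2), and 10 had at most 3 counts in each, those 6 included. A filter on counts passes a gene that is high in either group, so the 31 tested members are not the whole set. Among the 14 lower members, 3 (SLITRK4, NRXN2 and LRRTM2) had a library under 10 counts, and among the 12 higher members 0 did. Antisense or divergent genes whose exons overlap those of NCAM1, NTM, NEGR1 and L1CAM (NCAM1-AS1, NTM-AS1, ZRANB2-DT and L1CAM-AS1) had at most 12 counts in a library. Other overlaps are not covered by these values. L1CAM shares 439 exon bases with a protein-coding gene on its own strand, FLRT2 736 with FLRT2-AS1 and NRXN2 289 with NRXN2-AS1.

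Genes that act with these molecules were followed as a list of 60, from receptor phosphatases, netrin-G ligands, latrophilins, teneurins, LGI receptors and scaffolds to the enzymes that modify NCAM. Of these, 51 were tested and 35 called, 17 higher and 18 lower, which was 68.6% beside 54.5% of all tested genes. The libraries did not overlap for 38 of them (74.5% beside 61.3%), and 6 were DEGs, all lower (11.8% beside 4.72%). ST8SIA2, which adds polysialic acid to NCAM1 and so loosens its adhesion, had 595.8, 619.3 and 585.8 normalized counts in WT against 31.75, 28.95 and 32.94 in NUAK2-CR. It fell by 4.26 on the log2 scale (SE 0.15, adjusted p = 6.32e-10). ST8SIA4, the other polysialyltransferase, fell with it, from 152 ± 40.9 to 13.0 ± 3.47 (log2 fold change -3.53, SE 0.31, adjusted p = 1.33e-06). PTPRZ1, a receptor phosphatase of glial cells that binds contactin-1, had 355.4, 748.6 and 618.1 normalized counts in WT against 133.3, 141.1 and 107.6 in NUAK2-CR (log2 fold change -2.17, SE 0.24, adjusted p = 1.01e-05). The enzymes of polysialylation and both named partners CNTN1 and PTPRZ1 were thus lower in the same libraries in which NCAM2 was higher. The other lower DEGs of the list, TENM1, PTPRD and IL1RAPL2, had mean normalized counts under 100 and were picked out after their values were seen. PTPRD, a phosphatase that SLITRK proteins bind, was counted 34, 15 and 17 times in the WT libraries and 0, 2 and 1 times in the targeted ones.

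**Figure D4:**
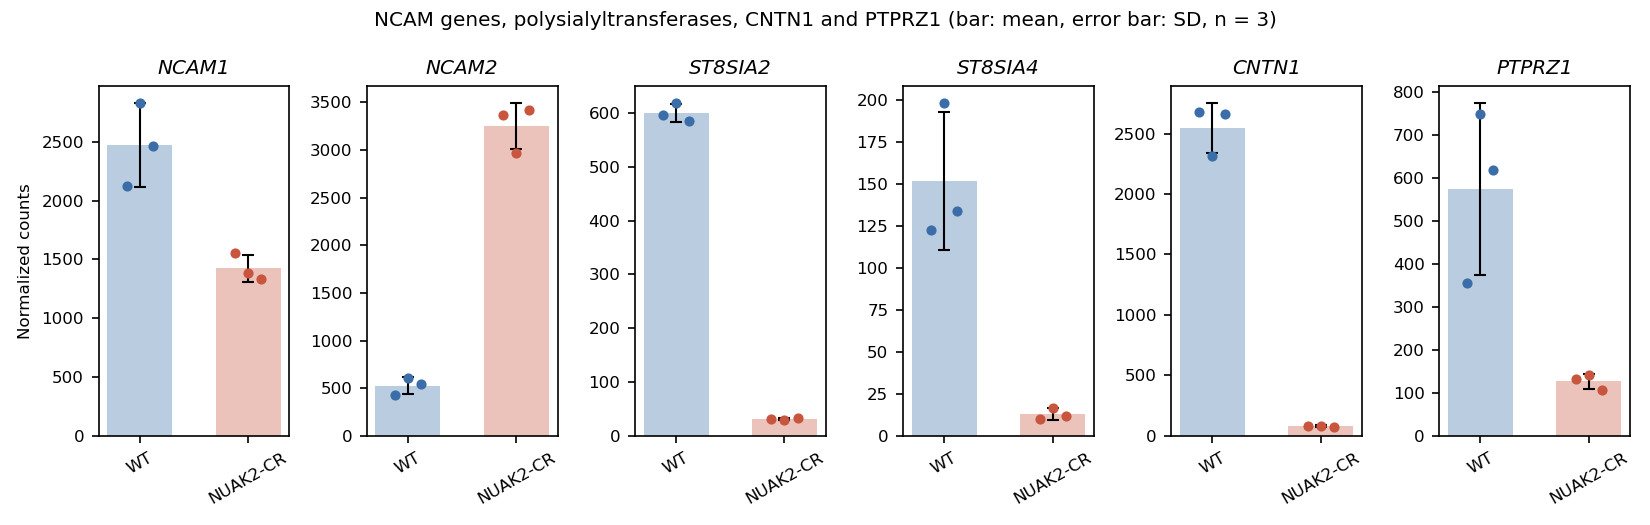
Normalized counts of NCAM1, NCAM2, the polysialyltransferase genes ST8SIA2 and ST8SIA4, CNTN1 and PTPRZ1 in WT and NUAK2-CR, with points for libraries, bars for means and error bars for SD (n = 3). Of these 6 genes NCAM2 alone was higher in NUAK2-CR, and ST8SIA2 went from 600.3 to 31.2.

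The remaining partners were counted by group, and those named here were picked after their values were seen. With 54.5% of all tested genes called, groups this small are described and not set apart from the rest. Of the 8 receptor phosphatases and their ligands 7 were tested, with 2 higher and 4 lower. Among the presynaptic receptor phosphatases, PTPRS rose by a log2 fold change of 0.66 (adjusted p = 2.98e-06), whereas PTPRF changed by -0.20 (adjusted p = 0.0207). All 4 genes listed in the netrin-G and NGL group were called, 2 higher and 2 lower. LRRC4B, another NGL gene, was listed with the receptor phosphatases and their ligands and was not tested. NTNG1, a netrin-G that anchors axons to LRRC4C, fell from 949 ± 45.8 to 282.5 ± 9.35 (log2 fold change -1.75, SE 0.10, adjusted p = 2.11e-08), and LRRC4C itself fell from 738.2 ± 110.3 to 376.9 ± 61.1 (log2 fold change -0.97, SE 0.14, adjusted p = 8.78e-05). NTNG2 (log2 fold change 1.26, adjusted p = 0.0115) and LRRC4 (0.52, adjusted p = 0.0282) rose. All 7 latrophilins and teneurins were called, 4 higher and 3 lower. TENM2, a teneurin that binds latrophilins and was among the most counted genes of the list, fell from 22390 ± 3192 to 8985 ± 843.5 (log2 fold change -1.32, SE 0.10, adjusted p = 4.99e-07), and ADGRL3, a latrophilin that binds both teneurins and FLRT proteins, rose by 0.66 (SE 0.09, adjusted p = 5.57e-05). Of the 11 cerebellin, GRID, MDGA and calsyntenin genes 7 were tested, with 3 higher and 0 lower, and of the 7 LGI and ADAM genes 6 were tested, with 2 higher and 2 lower. ADAM22, a receptor of LGI proteins, rose from 76.22 ± 19.4 to 291.6 ± 53.3, and ADAM23, another, fell from 716 ± 147.7 to 384.7 ± 41.1. Of the 17 scaffold genes 15 were tested, with 4 higher, 3 lower and 0 DEGs. DLG4, which encodes PSD-95, changed by 0.42 (adjusted p = 8.72e-04), and the ankyrin gene ANK3, which anchors neurofascin at the axon initial segment, by -0.64 (SE 0.15, adjusted p = 0.00274).

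Markers of cell types gave the setting of these values. The astrocyte and glioma list of 9 genes, with GFAP, VIM and SOX9 abundant and AQP4 at the floor, summed to 5960 to 6100 CPM in WT and 2730 to 2930 in NUAK2-CR, with 5 genes lower and 0 higher. GFAP fell by 2.56 on the log2 scale (adjusted p = 2.74e-10). Of 10 neuronal markers 8 were tested, 4 higher and 1 lower, and their sum was 481 to 552 in WT and 420 to 438 in NUAK2-CR, with ELAVL4 at 0 throughout. SNAP25, a synaptic vesicle fusion protein, went from 64.64 ± 10.2 to 754.1 ± 74.9 normalized counts and STMN2, a growth cone protein, from 2.05 ± 2.49 to 82.7 ± 15.3. TUBB3, the most counted gene of the list, fell by 0.49 on the log2 scale, from 16220 to 11520 normalized counts. RBFOX3, SYP and MAP2 were not called. DCX had 12, 16 and 14 counts in WT against 0, 2 and 1 in NUAK2-CR, too few to be tested. Of the 8 oligodendrocyte lineage markers OLIG1, OLIG2, SOX10 and MOG were at or near 0 in all libraries, while PDGFRA (log2 fold change -2.54) and MBP (-1.99) fell and CSPG4 (1.59) rose. Their sum, 25.7 to 32.1 CPM in WT and 27.0 to 31.7 in NUAK2-CR, thus held changes in both directions. Of the 5 immune markers PTPRC, AIF1 and CX3CR1 were at or near 0, CSF1R fell by 2.46 on the log2 scale, and the sum was 5.77 to 6.94 in WT and 1.12 to 1.29 in NUAK2-CR. The 6 fibroblast and pericyte genes, 3 higher (COL1A2, PDGFRB and LUM) and 2 lower (COL1A1 and RGS5), summed to 1100 to 1130 in WT and 1630 to 1770 in NUAK2-CR. Among the 4 endothelial genes KDR, the most abundant, fell by 1.24 on the log2 scale, while VWF rose by 1.69 and PECAM1 rose from at or under the floor of 3 counts to 15.83 ± 0.915 normalized counts. Their sum was 6.04 to 8.2 in WT and 4.94 to 5.35 in NUAK2-CR. The part of these shifts in the adhesion genes' values was not tested.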

How the data were processed

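Bulk RNA from 6 libraries (3 WT, 3 NUAK2-CR) had been prepared with a stranded mRNA kit, sequenced as read pairs and processed by the authors with Trimmomatic, HISAT2 against hg38 and featureCounts with default parameters, which ignore strand. The deposited values are raw counts per NCBI gene ID, and the authors applied no normalization to them. Strand therefore does not separate the reads of a gene from those of an antisense partner. The counting annotation is not given in the sources used here. Symbols came from RefSeq (650 IDs had none), coordinates and exons from GENCODE 44.

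Counts were fitted with edgeR 4.0.16 (limma 3.58.1, R 4.3.3): filterByExpr, TMM scaling and the quasi-likelihood F test across all 14873 tested genes, with Benjamini-Hochberg adjustment. The SE is the absolute log2 fold change over the square root of F. The thresholds (0.05 and an absolute log2 fold change over 2) follow the study. Levels per kilobase use the canonical transcript, which for FLRT2 is 33681 bases and lowers its value. The steps were tested on simulated data. Tables and plots used Python 3.11.15, pandas 2.3.3 and matplotlib 3.10.9. Values per library are given by rule for NUAK2, for members past the DEG thresholds, for called members whose higher group averaged 100 normalized counts or more and for the most abundant member of each family, and partners past the DEG thresholds at that level were named. The members and gene lists were chosen with earlier results of these data known. Alternatives were DESeq2 1.42.0, other scalings, filters, prior counts and fold thresholds, a replicate block, regional medians and leaving out each library. Values of some items are not reported here.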

Additional observations from a re-analysis of the deposited data

How the results depend on the processing

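Among the 29 named members and partners, none of the 402 values under the alternatives reversed. None lost its call at an adjusted p under 0.05, although values minus a regional median have no p-value and cannot lose one. In 1 case a call was gained (CNTNAP1 without NUAK2-CR replicate 3, 0.32, adjusted p = 0.0215). OPCML was called but is not among the 29. Without NUAK2-CR replicate 2, NUAK2-CR replicate 3 or WT replicate 3, 25 of the 26 called members kept their call, and OPCML lost its call. Sizes moved most for scarce genes. The fitted value of SLITRK4, whose NUAK2-CR libraries are all at 0, was -8.79 and became -4.84 with a prior count of 2, and that of NRXN2 was -2.31 there. Subtracting the median of the 100 nearest tested genes moved 13 values by more than the spread between replicates and left NUAK2 at -0.50. The members called numbered 25 to 26 with a library left out, 27 by DESeq2, 28 with no filter beyond 1 count and 23 of 28 with at least 10 counts in every library. The DEGs among them numbered 9 to 11, 11, 12 and 7 in the same settings, and 9 with a prior count of 2. With an absolute log2 fold change over 1 as the threshold they numbered 18. FLRT3 was the member added by DESeq2. With no filter beyond 1 count, FLRT3 (log2 fold change -5.46, adjusted p = 0.024) and CNTN2 (-5.84, adjusted p = 0.0189) were added, both on few counts. Over the whole table, DEGs numbered 702, 339 with at least 10 counts in every library, 969 with no filter beyond 1 count and 2062 with a log2 fold change over 1. SLITRK4, NRXN2, LRRTM2 and the partner ST8SIA4 had too few counts for the filter at 10 counts, and NTM became a DEG without NUAK2-CR replicate 1 (2.0). Same-numbered libraries did not deviate together (correlations 0.043, -0.035 and 0.048), and with a replicate block 26 members were called and 9 were DEGs (LRRTM2 at -2.0), 709 over the whole table, with 35 partners called and NUAK2 at -0.92. Counts under about 10 limit the scarce members, since both mates of a pair may be counted.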

Other observations

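Several adhesion genes lie near each other on a chromosome. NFASC and CNTN2 lie 279 kb and 224 kb before NUAK2, the targeted gene, on chromosome 1. The 4 tested genes between had log2 fold changes of -0.13 (TMEM81), -0.38 (RBBP5), -0.44 (DSTYK) and -1.06 (TMCC2), beside -4.06 for NFASC and -0.93 for NUAK2. NTM and OPCML, 78.2 kb apart on chromosome 11, moved in opposite directions (1.96 and -1.16). SLITRK4 and SLITRK2 lie 2181728 bases apart on the X chromosome with 0 tested genes between them, and both were lower. On the same chromosome the medians of the 100 nearest tested genes were -0.51 for SLITRK2, -0.53 for SLITRK4 and -0.50 for L1CAM, which was higher. CHL1, CNTN6 and CNTN4, consecutive members on chromosome 3, were all at or near 0. Between NCAM1 and CADM1, both lower, the 10 tested genes had log2 fold changes with a median of 0.17.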
